A study of Mus musculus with 6 samples.

Results

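The genes examined here are 10 markers of the pyramidal cells of hippocampal fields CA3 and CA2, read in bulk RNA from the whole hippocampus. They were taken by symbol from the table of 55421 genes, *Bok*, *Iyd*, *Coch*, *Nectin3* and *Socs2* as the 5 CA3 markers and *Rgs14*, *Amigo2*, *Pcp4*, *Map3k15* and *Cacng5* as the 5 CA2 markers. Each symbol matched 1 gene, and all 10 genes passed the filter on low counts. The libraries came from 3 mice injected with substance P (SP) and 3 mice injected with saline as vehicle, all wild-type male C57BL/6N mice that were 8 to 10 weeks old. SP was given under the skin at 10 µM in 100 µL for 14 consecutive days, and the vehicle mice received the same volume. The question was whether markers of these fields differed in the hippocampus of SP-injected mice.

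The pyramidal cells of CA3 receive the mossy fibers of dentate granule cells, excite one another through recurrent collaterals, and send the Schaffer collaterals to CA1. The small CA2 field lies between CA3 and CA1, is known for its part in social memory, and shows little long-term potentiation (LTP) at its Schaffer collateral synapses. SP-containing fibers end in CA2. In bulk RNA, fewer cells of a field and less RNA per cell cannot be told apart.

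The 6 libraries held 22349941 to 27605937 estimated counts, and 17069 genes were tested. Expression is given as CPM, the count scaled to the normalized library size. At this depth 3 counts correspond to 0.109 to 0.135 CPM, and this limit covers counting error only. A gene was called differentially expressed (DEG) at FDR < 0.1 and |log2FC| > 0.3 in edgeR's quasi-likelihood test with the replicate number as a block, which called 0.0293% of the tested genes, 0.0176% as higher and 0.0117% as lower in the SP libraries. Markers of CA1 and of the dentate gyrus were measured in each library. The choroid plexus markers were far lower in SP 1, where their summed level was 4.21% of the vehicle mean, against 67.7% in SP 2 and 95.7% in SP 3.

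None of the 10 markers was a DEG, whereas 5 of 10 had an unadjusted p under 0.05 in edgeR, compared with 10.1% of the genes tested. *Bok*, *Iyd* and *Nectin3* in CA3 and *Rgs14* in CA2 were higher in every SP library than in every vehicle library. *Coch* was lower in every SP library. Groups that did not overlap were thus found for 4 markers that were higher and 1 that was lower, 5 of 10 in all. Over all tested genes 18.2% had groups without overlap, 9.19% higher and 9.03% lower. The 10 markers were chosen with earlier results of these data known, so their counts beside these shares are descriptions only. With the same block, limma-voom called 0 of the 10 markers and DESeq2 0 of 8, since DESeq2 gave no adjusted p for *Iyd* and *Map3k15*. The number called was 3 when the filter on low counts was left out (*Bok*, *Iyd* and *Coch*) and 2 with DESeq2 without the block (*Bok* and *Iyd*). Over all tested genes these 2 settings called 384 of 28039 and 133 of 17069 genes, where the main fit called 5 of 17069.

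**Figure D1:**
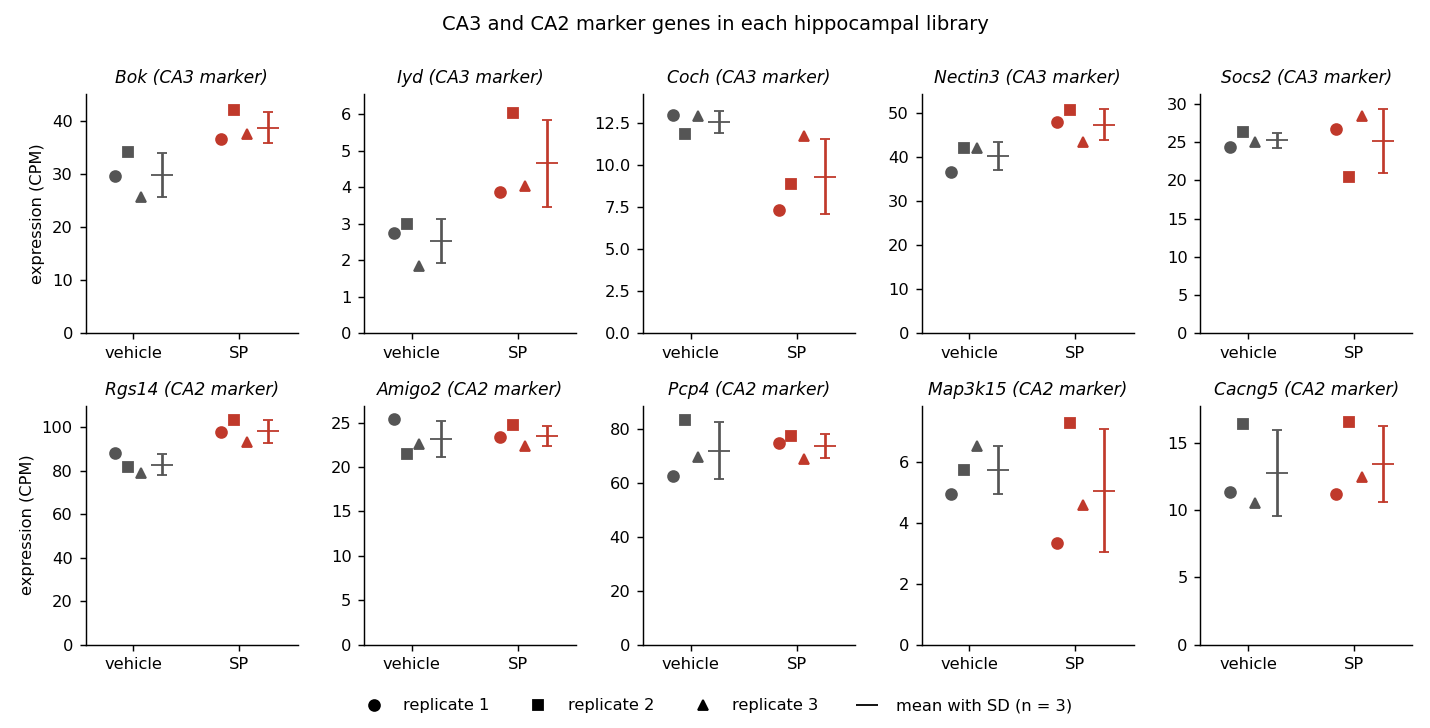
Expression in CPM of the 5 CA3 markers (upper row) and the 5 CA2 markers (lower row), with 1 point for each library, a point shape for each replicate number, and the mean with SD of the 3 libraries of a group beside them. In *Bok*, *Iyd*, *Nectin3* and *Rgs14* the SP points lie above the vehicle points, in *Coch* they lie below, and in the other 5 genes they overlap.

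*Bok* encodes a member of the BCL2 family that permeabilizes the outer mitochondrial membrane. The gene (ENSMUSG00000026278) lies on chromosome 1 of GRCm38 from 93685660 to 93695764 on the plus strand. Its expression was 29.5, 34.0 and 25.7 CPM in vehicle 1, 2 and 3 and 36.6, 42.0 and 37.5 CPM in SP 1, 2 and 3. Each SP library was above the highest vehicle library, and replicate 2 was highest in both groups. The means were 29.8 ± 4.16 CPM and 38.7 ± 2.91 CPM (SD, n = 3 each), a log2 fold change of 0.38 (standard error 0.0726, edgeR FDR 0.308). The labels give the replicate number as the batch, and within batches 1, 2 and 3 the log2 ratios of CPM + 0.5 were 0.30, 0.30 and 0.53, so that *Bok* was higher in 3 of 3 pairs.

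*Iyd* encodes iodotyrosine deiodinase, the enzyme that recovers iodide from iodotyrosines in the thyroid. The gene (ENSMUSG00000019762, chromosome 10 from 3540240 to 3554877, plus strand) was measured at 2.75, 2.99 and 1.85 CPM in the vehicle libraries and at 3.88, 6.02 and 4.04 CPM in the SP libraries. These values rest on 51 to 145 counts in a library. It was the least abundant CA3 marker in CPM, yet its groups did not overlap. The log2 fold change was 0.88 (standard error 0.179, edgeR FDR 0.308), the largest of the 10 markers, with a 95% interval from 0.46 to 1.30. It corresponds to a 1.84-fold ratio of the group means, and the pairs had log2 ratios of 0.43, 0.90 and 0.95.

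*Nectin3* encodes an adhesion protein of the immunoglobulin superfamily that joins cells at adherens junctions. The gene (ENSMUSG00000022656, chromosome 16 from 46387706 to 46498525, minus strand) had 36.5, 42.0 and 42.0 CPM in the vehicle libraries and 47.9, 50.5 and 43.5 CPM in the SP libraries. The lowest SP library, SP 3, lay just above the highest vehicle libraries. The log2 fold change was 0.24 (standard error 0.0772, edgeR FDR 0.417), below the threshold of 0.3. Without replicate 1 it was 0.16, and its unadjusted p in edgeR was then 0.139.

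*Coch* encodes cochlin, a secreted protein of the extracellular matrix that is abundant in the inner ear. The gene (ENSMUSG00000020953, chromosome 12 from 51593341 to 51605771, plus strand) differed in the opposite direction. Its level was 12.98, 11.8 and 12.95 CPM in the vehicle libraries and 7.33, 8.88 and 11.8 CPM in the SP libraries. SP 1 was lowest and SP 3 came close to the vehicle libraries. The log2 fold change was -0.45 (standard error 0.136, edgeR FDR 0.404), with log2 ratios of -0.78, -0.40 and -0.13 within the pairs. Without replicate 1 it was -0.27, and the unadjusted p in edgeR was 0.0786. The summed level of 5 leptomeningeal fibroblast genes was 62.2%, 57.4% and 87.2% of the vehicle mean in SP 1, 2 and 3. *Igf2* was the largest part of it and the 1 gene lower at an unadjusted p under 0.05 in edgeR. It had 189, 192 and 261 CPM in the vehicle libraries and 93.4, 125 and 188 CPM in the SP libraries. Relative to the vehicle mean of log2 CPM + 0.5, the median of the 5 genes was -0.23, -0.12 and -0.23. Over all tested genes 5.59% were lower at such a p in edgeR. The 6 choroid plexus genes, of which 6 had a negative log2 fold change and 3 an unadjusted p under 0.05 in edgeR, summed to 4.21%, 67.7% and 95.7%, lowest in SP 1 and highest in SP 3 as *Coch* was. The part of either list in the *Coch* difference was not tested.

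The remaining CA3 marker, *Socs2*, encodes a suppressor of growth hormone and cytokine signaling. The gene (ENSMUSG00000020027, chromosome 10 from 95385362 to 95417180, minus strand) had 24.4, 26.3 and 25.0 CPM in the vehicle libraries and 26.7, 20.4 and 28.4 CPM in the SP libraries. Library SP 2 was the lowest of the 6 and SP 3 the highest, so that the SP libraries enclosed the vehicle range. Its fold change was -0.016 on the log2 scale, with a 95% interval from -0.28 to 0.25 (edgeR FDR 0.973), and it was 0.15 without replicate 2. Of the 31-base sequences of *Socs2*, 6.18% also occur in transcripts of other genes, most often the pseudogenes *Gm9847* and *Gm8000*, which were listed at 0 in every library.

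The 3 CA3 markers with a log2 fold change beyond 0.3 are shown with the sequence before their start site, because 2 of them were higher and 1 was lower in the SP libraries. The sequences are from RefSeq on GRCm38.p6, written 5′ to 3′ on the gene's strand, and stop where a GENCODE exon begins or at the RefSeq start. They cover chr1:93685325-93685574 for *Bok*, chr10:3540024-3540239 for *Iyd* and chr12:51593091-51593340 for *Coch*. Capitals mark the GC box GGGCGG on either strand.
Bok: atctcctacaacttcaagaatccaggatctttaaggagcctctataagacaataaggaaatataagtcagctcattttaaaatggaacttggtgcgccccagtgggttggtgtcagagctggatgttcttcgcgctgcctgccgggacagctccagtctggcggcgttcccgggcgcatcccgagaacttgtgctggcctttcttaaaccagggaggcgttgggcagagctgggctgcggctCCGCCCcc
Iyd: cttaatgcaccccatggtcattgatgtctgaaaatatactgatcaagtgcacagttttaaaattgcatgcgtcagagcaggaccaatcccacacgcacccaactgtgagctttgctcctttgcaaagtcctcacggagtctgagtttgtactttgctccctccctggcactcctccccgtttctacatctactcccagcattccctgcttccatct
Coch: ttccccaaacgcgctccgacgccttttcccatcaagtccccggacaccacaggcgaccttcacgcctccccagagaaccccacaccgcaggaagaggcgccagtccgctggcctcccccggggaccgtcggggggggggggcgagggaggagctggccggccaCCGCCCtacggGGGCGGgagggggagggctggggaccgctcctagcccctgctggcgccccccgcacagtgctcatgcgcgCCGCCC
The window of 250 bases before the start held 55.2% G and C for *Bok*, 48.4% for *Iyd* and 74.8% for *Coch*, where the median of 32851 RefSeq promoters was 52.4%. GGGCGG was found at 1 place for *Bok*, 0 for *Iyd* and 3 for *Coch*, and 32.7% of all promoters hold it. The *Iyd* window held 1 TATAAA, past the printed bases, a motif in 12.4% of promoters. The cyclic AMP response element TGACGTCA and the E-box CACGTG, present in 1.55% and 6.02% of promoters, were found in none of the 3 windows. RefSeq promoters were found for 7 of the 10 markers. These matches are descriptions of the letters only.

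Among the CA2 markers, *Rgs14* stood alone with groups that did not overlap. It encodes a scaffold that accelerates GTP hydrolysis by G protein alpha subunits and is known to restrain LTP in CA2 neurons. The gene (ENSMUSG00000052087, chromosome 13 from 55369732 to 55384687, plus strand) had 88.1, 81.7 and 78.8 CPM in the vehicle libraries and 98.01, 104 and 93.1 CPM in the SP libraries. The means were 82.9 ± 4.74 CPM and 98.2 ± 5.26 CPM (SD, n = 3 each), 18.5% higher in the SP libraries. The difference of 0.25 on the log2 scale (standard error 0.0576, edgeR FDR 0.335) did not reach 0.3. The log2 ratios were 0.15, 0.34 and 0.24 in the pairs, and the fold change lay between 0.20 and 0.29 when a replicate was left out. The gene *Letm1*, which shares sequence with *Rgs14*, had a log2 fold change of 0.0078 (edgeR FDR 0.972). The 31-base sequences of *Rgs14* that occur in other genes made up 2.90%.

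*Amigo2* encodes a leucine-rich repeat adhesion protein that is a classical label of CA2. The gene (ENSMUSG00000048218, chromosome 15 from 97244125 to 97247287, minus strand) had 25.4, 21.5 and 22.6 CPM in the vehicle libraries and 23.4, 24.7 and 22.4 CPM in the SP libraries. The groups overlapped nearly throughout. On the log2 scale SP differed by 0.022, with a 95% interval from -0.17 to 0.22 (edgeR FDR 0.952), and was -0.067 without replicate 2.

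*Pcp4* encodes a small calmodulin-binding protein of CA2 neurons that is also made in other neurons, among them cortical, thalamic, striatal and Purkinje neurons. The part of CA2 cells in its level here was not tested. The gene (ENSMUSG00000090223, chromosome 16 from 96467606 to 96525793, plus strand) had 62.5, 83.2 and 69.5 CPM in the vehicle libraries and 74.8, 77.3 and 68.8 CPM in the SP libraries. The vehicle libraries held both the lowest and the highest value. A log2 fold change of 0.045 was fitted, with a 95% interval from -0.14 to 0.23 (edgeR FDR 0.879), and it was -0.061 without replicate 1. *Pcp4* overlaps *Igsf5* on the same strand and shares 19.9% of its 31-base sequences with it, while *Igsf5* was at most 0.808 CPM.

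*Cacng5* encodes a transmembrane regulator of AMPA receptors. The gene (ENSMUSG00000040373, chromosome 11 from 107874605 to 107915055, minus strand) had 11.3, 16.4 and 10.5 CPM in the vehicle libraries and 11.2, 16.6 and 12.5 CPM in the SP libraries. Replicate 2 was highest in both groups, by more than the groups differed. Its log2 fold change was 0.084, with a 95% interval from -0.13 to 0.30 (edgeR FDR 0.804), and -9.8e-05 without replicate 3.

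*Map3k15* encodes a kinase that acts upstream in the MAP kinase cascade. The gene (ENSMUSG00000031303, chromosome X from 159988433 to 160123351, plus strand) had 4.94, 5.74 and 6.53 CPM in the vehicle libraries and 3.32, 7.26 and 4.58 CPM in the SP libraries. SP 1 was the lowest and SP 2 the highest of all libraries. The log2 fold change was -0.23, with a 95% interval from -0.69 to 0.24 (edgeR FDR 0.743), and it was -0.074 without replicate 1 and -0.54 without replicate 2. *Map3k15* shares 12.0% of its 31-base sequences with transcripts of the opposite strand, and *Pdha1*, which overlaps it there, had 221 to 247 CPM. The libraries were stranded, but whether the counting used the strand is not stated.

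TPM is a count scaled to depth and to the merged length of the exons of all annotated transcripts of a gene. The order of the markers depends on that length, 12747 bases for *Nectin3* and 9531 for *Socs2*, whichever transcripts were expressed. Per gene length, *Pcp4* had the highest level of the 10 markers, 229 ± 33.3 TPM in the vehicle libraries (SD, n = 3). *Rgs14* and *Bok* followed with 64.0 ± 4.20 and 53.0 ± 7.61 TPM (SD, n = 3 each) and overlapped. *Amigo2* had 24.02 ± 2.25 TPM. *Coch*, *Cacng5* and *Nectin3* had 13.8, 10.9 and 10.3 TPM, and each overlapped the next in that order. *Socs2* followed with 8.67 TPM. The lowest levels were those of *Iyd* and *Map3k15*, 5.11 and 4.32 TPM, which also overlapped.

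**Figure D2:**
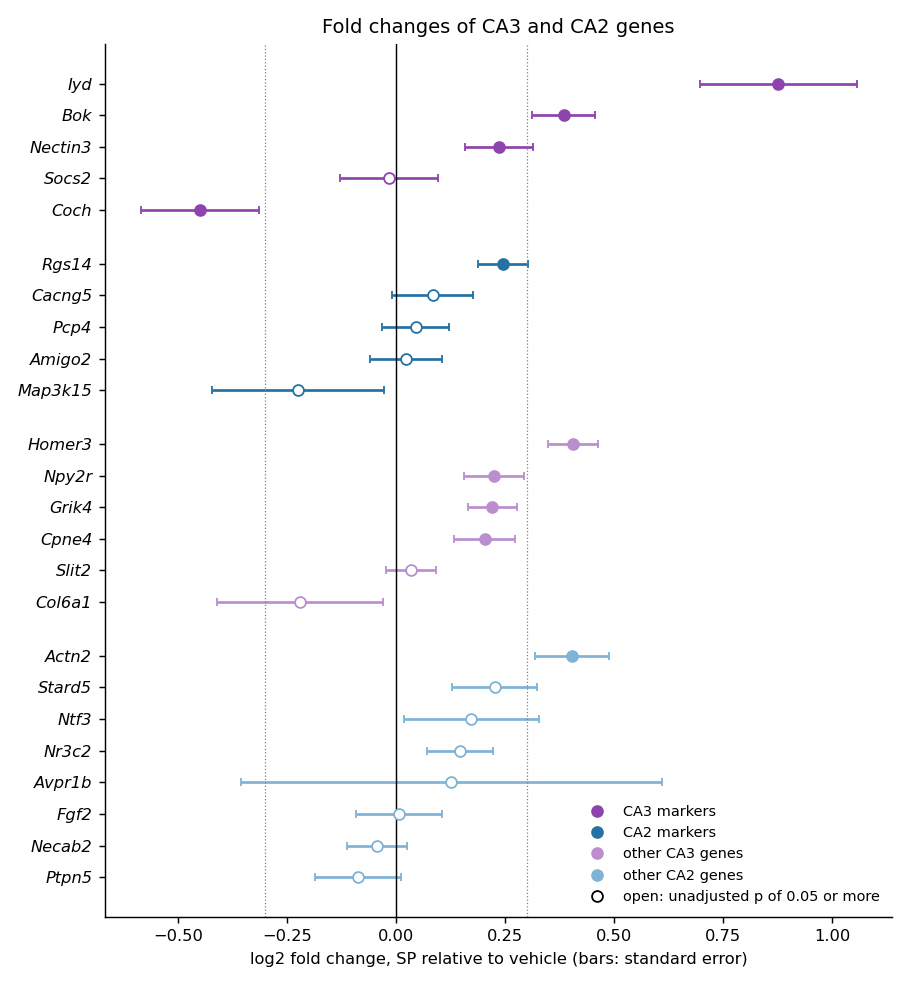
Log2 fold change of SP relative to vehicle for the 10 markers and for 14 other genes of CA3 and CA2, with the standard error as bars, filled points at an unadjusted p under 0.05 in edgeR and dotted lines at the threshold of 0.3 in each direction. *Iyd*, *Bok*, *Homer3* and *Actn2* lie above 0.3 and *Coch* lies below -0.3.

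The median log2 fold change was 0.24 for the 5 CA3 markers, 0.045 for the 5 CA2 markers and 0.0015 for all tested genes. In edgeR, 3 higher and 1 lower of the 5 CA3 markers and 1 higher and 0 lower of the 5 CA2 markers had an unadjusted p under 0.05. The background was 4.48% higher and 5.59% lower, and these counts of chosen markers are likewise descriptions only. Summed over the 5 genes, the CA3 markers had 106, 117 and 108 CPM in the vehicle libraries and 122, 128 and 125 CPM in the SP libraries, which did not overlap. The CA2 markers summed to 192, 209 and 188 CPM in the vehicle libraries and to 211, 229 and 201 CPM in the SP libraries, which overlapped. The median of the CA3 markers was 0.16 without replicate 1 and 0.30 without replicate 3, and that of the CA2 markers was 0.093 without replicate 1 and 0.12 without replicate 2. Whether the CA3 and CA2 markers differed from each other was not tested.

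Further genes of both fields were read from lists written with earlier results of these data known. Of 6 other CA3 genes, 4 were higher in every SP library and had an unadjusted p under 0.05 in edgeR, and 0 were DEGs. Over all tested genes, 9.19% were higher without overlap and 4.48% were higher at an unadjusted p under 0.05 in edgeR. Counts from lists chosen in this way are descriptions only. *Homer3*, a scaffold of metabotropic glutamate receptors, had 48.0 ± 6.02 CPM in the vehicle libraries and 63.5 ± 6.23 CPM in the SP libraries (SD, n = 3 each), a log2 fold change of 0.41 (standard error 0.0567, edgeR FDR 0.231). *Grik4*, a kainate receptor subunit found at CA3 synapses, had 54.1, 59.0 and 54.5 CPM against 61.5, 71.5 and 62.4 CPM, a log2 fold change of 0.22 (edgeR FDR 0.351). *Npy2r*, a neuropeptide Y receptor, and *Cpne4*, a copine, had log2 fold changes of 0.23 and 0.20. *Col6a1*, a collagen VI chain, was the lowest of the list at -0.22, with 42.7 CPM in SP 2 where the other libraries had at least 71.5 CPM. The list summed to between 372 and 400.0 CPM in the vehicle libraries and between 410.5 and 436 CPM in the SP libraries.

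Of 8 other CA2 genes, 1 was higher with an unadjusted p under 0.05 in edgeR, 0 were lower, and the median log2 fold change was 0.14. This gene was *Actn2*, an alpha-actinin that links actin to postsynaptic proteins, with 13.7, 16.3 and 13.03 CPM in the vehicle libraries and 19.1, 19.6 and 18.1 CPM in the SP libraries. Its log2 fold change was 0.40 (standard error 0.0844, edgeR FDR 0.308). *Stard5*, a lipid transfer protein, was also higher without overlap, at 0.23 (edgeR FDR 0.499), and the phosphatase gene *Ptpn5* was the lowest at -0.087 (edgeR FDR 0.813). The summed level of the 8 genes overlapped between the groups, from 429 to 459 CPM and from 456 to 463 CPM. Of all tested genes, 4.48% were higher at an unadjusted p under 0.05 in edgeR and 9.19% were higher without overlap.

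Genes of the neighboring fields were read in the same way. Of 8 CA1 genes, 4 had an unadjusted p under 0.05 in edgeR, 2 higher and 2 lower. Among them, *Fibcd1* (0.26) and *Lefty1* (0.46) were higher and *Mpped1* (-0.18) was lower on the log2 scale. Their median was -0.037, 3 had groups without overlap, and their sum overlapped between the groups. Of 8 dentate granule cell genes, 7 had a positive log2 fold change and the median was 0.22, but the groups overlapped in each gene. The dentate sum was 120% and 137% of the vehicle mean in SP 1 and SP 2 and 89.5% in SP 3, whereas the CA3 markers summed to 111%, 116% and 113%. Of the 5 CA3 markers, 4 had an unadjusted p under 0.05 in edgeR, as did 4 CA1 genes of 8 and 1 dentate gene of 8. Over all tested genes this share was 10.1%, and 18.2% had groups without overlap. Differences between these lists were not tested.

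Markers of tissue around CA3 and CA2 also differed between the libraries. The 5 subiculum genes summed to 80.1%, 55.8% and 86.0% of the vehicle mean in SP 1, 2 and 3, with no overlap between the groups. Of these genes 5 of 5 had a negative log2 fold change, lowest in *Tshz2* (-0.87), and 2 had an unadjusted p under 0.05 in edgeR. The 8 neocortical layer genes summed to 94.9%, 84.2% and 95.2%, again without overlap, with *Cux2* lowest at -0.64. The 5 genes of ventral hippocampus summed to 99.1%, 55.4% and 89.3%, with *Trhr* lowest at -0.83. The 5 layer 6b genes summed to 91.6%, 95.3% and 83.4%, with *Ccn2* lowest at -1.11 and *Lpar1* highest at 0.30. *Lpar1* was the largest part of that sum, with means of 27.5 CPM in the vehicle and 33.9 CPM in the SP libraries. The median log2 fold change of the layer 6b genes was -0.47, with 4 negative and 1 positive. An unadjusted p under 0.05 in edgeR was seen for 2 neocortical, 2 ventral and 3 layer 6b genes, all lower, and none of the listed genes was at 0 in every library. The 8 oligodendrocyte genes, in contrast, summed to 119%, 159% and 110%, with 6 of 8 higher at an unadjusted p under 0.05 in edgeR. Over all tested genes, 5.59% were lower and 4.48% were higher at such a p in edgeR. Astrocyte genes summed to 96.8%, 104% and 96.0%, endothelial genes to 101%, 99.3% and 97.3%, thalamic genes to 108%, 113% and 97.6%, and striatal genes to 86.8%, 80.2% and 98.8%. Replicate 2 includes SP 2, the library with the lowest subiculum and ventral sums. Without replicate 2, *Bok*, *Iyd* and *Rgs14* had log2 fold changes of 0.43, 0.80 and 0.20. In the same fit *Nectin3*, *Coch*, *Socs2*, *Amigo2*, *Pcp4*, *Map3k15* and *Cacng5* had 0.22, -0.47, 0.15, -0.067, 0.12, -0.54 and 0.12. SP 1 and SP 3, which remained in this fit, also had subiculum sums below the vehicle mean, at 80.1% and 86.0%. The part of these tissue markers in the CA3 and CA2 differences was not tested.

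**Figure D3:**
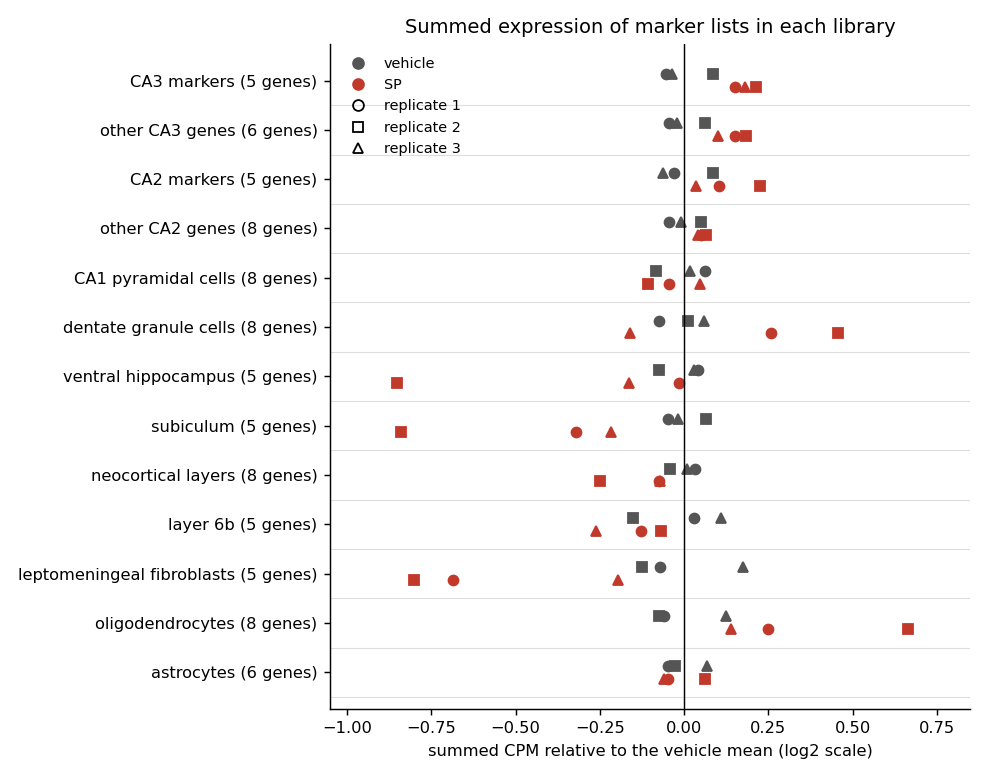
Summed CPM of marker lists in each library relative to the mean of the 3 vehicle libraries, on a log2 axis, with vehicle in grey, SP in red and a point shape for each replicate number. The CA3 lists of the SP libraries lie to the right of the vehicle libraries, subiculum lies to the left, and SP 2 stands apart in the ventral, subiculum and oligodendrocyte lists.

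SP is encoded by *Tac1* and binds the receptor encoded by *Tacr1*. *Tacr1* had 2.58, 2.18 and 2.58 CPM in the vehicle libraries and 1.75, 1.49 and 2.02 CPM in the SP libraries, with no overlap (log2 fold change -0.48, edgeR FDR 0.462). *Tac1* had 6.23 ± 0.186 CPM and 5.04 ± 1.86 CPM (SD, n = 3 each), and its groups overlapped (log2 fold change -0.35, edgeR FDR 0.641).

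Other genes with a similar pattern were sought among 10336 genes with at least 10 CPM on average, by the root mean square difference of centered log2 CPM over the 6 libraries. The mean profile of the CA3 markers was closest to *Wdr83os* (0.014), *Rprml* (0.016) and *Snrpb* (0.022). That of the CA2 markers was closest to *Ermard* (0.022) and *Arap1* (0.035). The log2 fold changes of the former were between 0.20 and 0.21, and those of the latter were 0.025 and 0.060. Closeness to the profile over the same 6 libraries fixes these fold changes near those of the markers' mean profile, so they are no further result.

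Leaving out a replicate number, which with the block removes 1 mouse of each group from the comparison, left the direction of 6 of the 10 markers as it was. These were *Bok*, *Iyd*, *Coch*, *Nectin3*, *Rgs14* and *Map3k15*, and *Bok* lay between 0.30 and 0.43 and *Iyd* between 0.76 and 1.06.

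**Figure D4:**
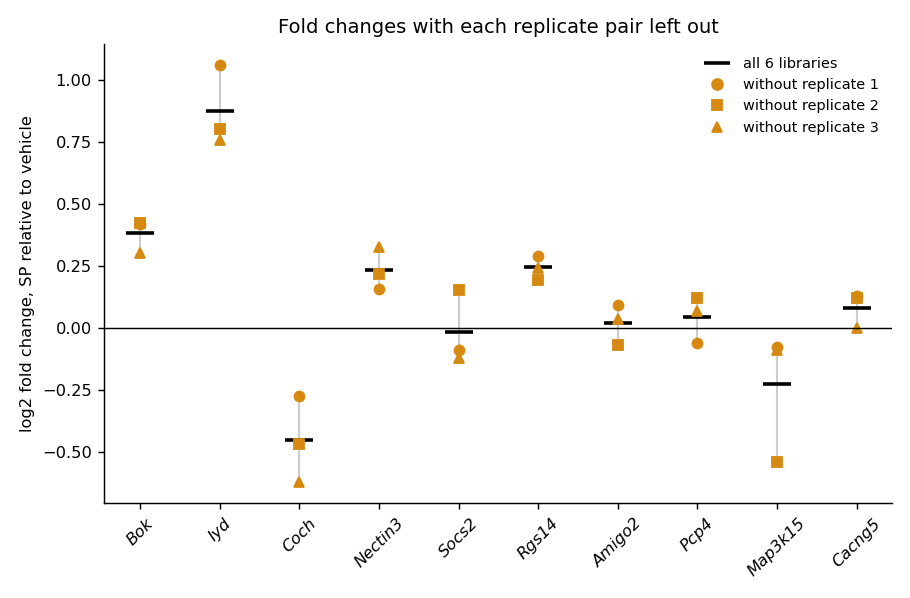
Log2 fold change of SP relative to vehicle for the 10 markers with all 6 libraries (black bars) and with both libraries of a replicate number left out (orange points). *Socs2*, *Amigo2*, *Pcp4* and *Cacng5* cross 0, and *Iyd* stays above 0.7.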

How the data were processed

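Hippocampal RNA of 3 mice given SP and 3 given vehicle was sequenced as stranded mRNA libraries. According to the study's methods and the labels, reads passed through TrimGalore, STAR (GRCm38) and Salmon. The authors deposited estimated counts per gene, not scaled for depth or gene length, of which 9.77% were not whole. Tool versions and the annotation release are not given in the sources used here. Counts were rounded, filtered with edgeR 4.0.16 filterByExpr and its design matrix (minimum count 10, minimum total count 15), normalized by TMM and tested with glmQLFit and glmQLFTest in R 4.3.3, with the replicate number as a block and Benjamini-Hochberg adjustment over 17069 genes. The deposited total counts per library set the depth. A two-sided exact permutation test of 3 against 3 cannot go below p = 0.1. With the block, the p-values rest on the spread between these mice that remains after the replicate number is fitted. That spread is estimated with information shared between genes. The labels give each replicate number as a batch shared by 1 mouse of each group, which pairs the mice. Deviations from the group means of same-numbered mice had Pearson's r of 0.012, -0.080 and 0.039 over the tested genes, which are no replicates. On simulated data of 16867 genes for SP against vehicle, the edgeR fit called 83 of 100 genes changed by 1 and 96 of 100 changed by 2 on the log2 scale, and 35 unchanged genes, 16.4% of its calls and more than the FDR of 0.1 allows. No smaller change and no replicate effect was simulated. The markers had log2 fold changes between -0.45 and 0.88, so the simulation does not give the recovery of changes of their size. Alternatives used no block, other filters and normalizations, limma-voom (limma 3.58.1), DESeq2 1.42.0, or 1 replicate number fewer. The filter by group size was chosen after seeing the data. Gene positions, exon lengths and 31-base sequences came from GENCODE M21 (GRCm38). The members and lists were chosen with earlier results of these data known. Named genes are the 10 markers, *Tac1*, *Tacr1*, the lowest and highest gene of each list, list genes with an unadjusted p under 0.05 or groups without overlap, and the 3 closest patterns. Of lists given as sums or counts, fewer are named, and 2 genes that the rule names are not reported here. Genes sharing sequence with a marker were added after values were seen.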

Additional observations from a re-analysis of the deposited data

How the results depend on the processing

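Of the 10 markers, 6 kept their direction under each of the 12 alternatives. The other 4 turned in 1 alternative each, *Socs2* and *Amigo2* without replicate 2, *Pcp4* without replicate 1 and *Cacng5* without replicate 3. With a replicate left out, *Socs2* ranged from -0.12 to 0.15, *Amigo2* from -0.067 to 0.093, *Pcp4* from -0.061 to 0.12, and *Cacng5* from -9.8e-05 to 0.13. The number of markers called, 0, was 3 without a filter and 2 in DESeq2 with no replicate block, and 0 when any 1 replicate was left out. DESeq2 with the block gave no adjusted p for *Iyd* and *Map3k15*, so that 8 of the 10 could be called there. The 5 markers with an unadjusted p under 0.05 were 3 to 6 when a replicate was left out, 3 of them without replicate 1. The median of the CA3 markers ranged from 0.16 to 0.30 and that of the CA2 markers from 0.038 to 0.12 with a replicate left out. The 5 DEGs over all tested genes were 2 with no replicate block, 2 with limma-voom, 0 with at least 10 counts in every library and 0 with the filter set by group size. They were 384 with no filter, 36 with DESeq2 and the block, 133 with DESeq2 without it, and 9 to 36 with a replicate left out (9, 13 and 36 without replicate 1, 2 and 3). The cause of these differences was not tested. With no replicate block, and so without the batch pairing, 0 markers were called, 5 had an unadjusted p under 0.05, and the CA3 and CA2 medians were 0.24 and 0.038. At this depth, low genes such as *Iyd* and *Map3k15* carry the largest standard errors of the 10, 0.179 and 0.197.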

Other observations

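Of 8 BCL2 family relatives of *Bok*, 1 was higher and 1 was lower without overlap. These were *Bid* (log2 fold change 0.33, edgeR FDR 0.416) and *Bcl2* (-0.27, edgeR FDR 0.397). The median of the 8 was 0.010, with 4 positive and 4 negative log2 fold changes. Over all tested genes 9.19% were higher and 9.03% were lower without overlap. Of 7 SOCS relatives of *Socs2*, *Socs4* had -0.20 (edgeR FDR 0.477), *Socs3* was lowest at -0.48 (edgeR FDR 0.547) and *Socs1* highest at 0.13. *Socs4* and *Socs3* were lower in every SP library, and *Socs7* was higher in every SP library, with 122 ± 1.78 CPM and 133 ± 11.1 CPM (SD, n = 3 each), a log2 fold change of 0.12 (edgeR FDR 0.551). A list of 4 genes held other nectins and the nectin-binding *Afdn*, of which 1 was higher and 1 was lower without overlap. These were *Nectin1* (log2 fold change 0.080) and *Afdn* (-0.039). Over all tested genes 18.2% did not overlap in either direction.

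Of 5 other AMPA receptor regulators related to *Cacng5*, *Cacng8* was higher in every SP library, with 88.1 ± 2.02 CPM and 100.2 ± 6.75 CPM (SD, n = 3 each), a log2 fold change of 0.18 (edgeR FDR 0.416), and *Cacng3* was lowest at -0.13 (edgeR FDR 0.495). The pairs *Amigo1* and *Amigo3*, *Rgs10* and *Rgs12*, and *Map3k5* and *Map3k6* had log2 fold changes between -0.077 and 0.054. Of these 6 genes, 0 had an unadjusted p under 0.05 in edgeR, compared with 10.1% of all tested genes.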
